A study of Drosophila melanogaster with 24 samples.

Results

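Glutathione S-transferases (GSTs) are the enzymes that join the tripeptide glutathione to reactive, often fat-soluble compounds. The genes described here are all those whose symbol begins with *Gst* in the deposited tables, 35 out of 13700 genes with an annotation and a value in 1 or more libraries. They fall into 6 classes by symbol, with 11 genes in class D (delta), 14 in class E (epsilon), 3 in class O (omega), 1 in class S (sigma), 4 in class T (theta) and 2 in class Z (zeta). Heads of male flies were profiled by RNA-Seq at days 3, 10, 20 and 30 post eclosion, in WT flies and in a *Drosophila* model of Alzheimer's disease (AD). The 24 libraries form 8 groups of 3 replicates. By the study's methods, AD flies carried the UAS-Aβ42 transgene, a human Aβ peptide, switched on in neurons by the elav-GAL4c155 driver. The WT flies were w1118, a *white* mutant strain, crossed to the same driver line, so both genotypes carried the driver and neither was treated with any agent. The sample labels name human APP as the transgene, and the 2 descriptions of the transgene cannot be reconciled from the tables. Each replicate was a pool of many heads, so a value is an average over pooled flies and over all cells of the head, and fewer cells of a type cannot be told apart from less RNA per cell.

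GST activity lets a cell remove plant toxins, insecticides and the products of lipid peroxidation, such as 4-hydroxynonenal, which accumulate under oxidative stress. Delta and epsilon GSTs are classes that expanded in insects, while omega, sigma, theta and zeta GSTs have counterparts in vertebrates. In flies several *GstD* genes are known targets of the transcription factor cap-n-collar (*cnc*), the fly counterpart of Nrf2, which is held back by *Keap1*. Some members do other work, among them *GstE14* (*noppera-bo*), which is needed in larval endocrine cells for the production of the steroid hormone ecdysone.

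The tables gave an expected count and an FPKM value (fragments per kilobase, scaled to library size) for each gene. Expected counts summed to between 12884945 and 26731357 per library. Levels of different genes are compared below as FPKM, and levels of a gene between libraries as normalized counts, that is expected counts scaled to the mean effective library size. All genes were tested together with edgeR's quasi-likelihood test, and a gene is said to have passed the threshold when its Benjamini-Hochberg FDR was under 0.05 and its absolute log2 fold change over 1. Nothing in the labels says that replicates were reared separately, so the p-values measure the spread between these libraries, which may be technical.

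Some libraries stood apart. The gene *w* (*white*) was at 1094 to 1832 normalized counts in the 12 WT libraries and at 3064 to 4372 in 11 of the AD libraries, but the library labelled AD day 30 replicate 3 held 1529, within the WT range. The yolk protein gene *Yp1*, a marker of female tissue, was highest in WT day 3 replicate 2 at 25.8 FPKM, against a median of 5.83 FPKM over all libraries. The sum of the 3 yolk protein genes listed (*Yp1*, *Yp2* and *Yp3*) was 118.9 FPKM there, the highest of the day 3 libraries. It was 53.99 and 73.48 FPKM in WT day 3 replicates 1 and 3 and 56.41 to 58.28 FPKM in the AD libraries of day 3. Over all libraries and ages it was between 53.99 and 137.7 FPKM, highest in AD day 30 replicate 3. Markers of neurons, glia and photoreceptors were present in all libraries. The summed FPKM of 4 muscle markers was between 311.7 and 1370.0 at day 3 and between 208.0 and 587.5 on later days, and that of 4 glial markers was between 626.6 and 1341 at day 3 and between 402.4 and 716.0 later. The summed FPKM of 4 digestive enzyme genes of the gut was 123.2 in WT day 3 replicate 1 and 334.9 in AD day 3 replicate 2, and at most 1.60 in the other libraries. The labels and the study's methods name no batch, but unannotated genes numbered by the authors themselves had the same lengths in all pairs of libraries within a set of 6 (replicate 1 of days 3, 10 and 20 in both genotypes) and within the other 18, and in none of the pairs between them. The 6 held 21168175 to 26731357 expected counts and the 18, among them all day 30 libraries, 12884945 to 16237611. The sets are called a first and a second processing run below, a name inferred from these gene lengths and not given by the labels. Whether the sets also differ in the flies or the RNA was not tested.

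The *Gst* genes lay in a few compact groups on the release 6 genome. All 11 genes of class D stood within 20849 bases of chromosome arm 3R (12364776 to 12385624), and *GstE1* to *GstE10* within 13198 bases of 2R (18396638 to 18409835). *GstO1*, *GstO2* and *GstO3* were adjacent on 3L (8518885 to 8524866), *GstZ1* and *GstZ2* on 3R (9455517 to 9460652), and *GstT1* and *GstT2* on 2R (9605988 to 9608350). The other 7 members stood alone, *GstE11*, *GstE12*, *GstE13*, *GstE14* and *GstS1* on 2R and *GstT3* and *GstT4* on the X chromosome. Fractional counts, which the estimator gives where reads fit more than 1 gene or transcript, were present in all 24 libraries for *GstO3*, *GstT1* and *GstT2* and in 6 for *GstO2*, and their levels are less certain. For *GstO2* the 6 were the libraries of the first processing run. *GstE10* overlaps *GstE1* on the opposite strand, and whether counting used strand is not given in the sources used here.

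Levels spanned more than 3 orders of magnitude among the members. *GstD1*, the major cytosolic delta GST, averaged 560.8 FPKM over the 24 libraries and *GstE12* averaged 554.2 FPKM, and they held 24.3% and 23.99% of the summed mean FPKM of the family. *GstE9* (197 FPKM), *GstD9* (118 FPKM), *GstE6* (117 FPKM) and *GstO2* (98.5 FPKM) followed. *GstS1*, known as an abundant protein of fly muscle that conjugates 4-hydroxynonenal, averaged 68.9 FPKM. The most abundant theta and zeta genes were *GstT4* at 44.7 FPKM and *GstZ2* at 58.0 FPKM, the latter a member of the class that carries out a step of tyrosine breakdown. Within class D the genes *GstD1* and *GstD9*, which are neighbours, held 77.5% and 16.3% of the class, whereas *GstD4* to *GstD8*, which are also neighbours, averaged between 0.133 and 2.002 FPKM. *GstD4* (0 to 11 expected counts per library), *GstD7* (0 to 6) and *GstE10* (0 to 27) did not pass the filter on low counts, which left 32 members for testing, 9 of class D, 13 of class E and all of the other classes.

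**Figure D1:**
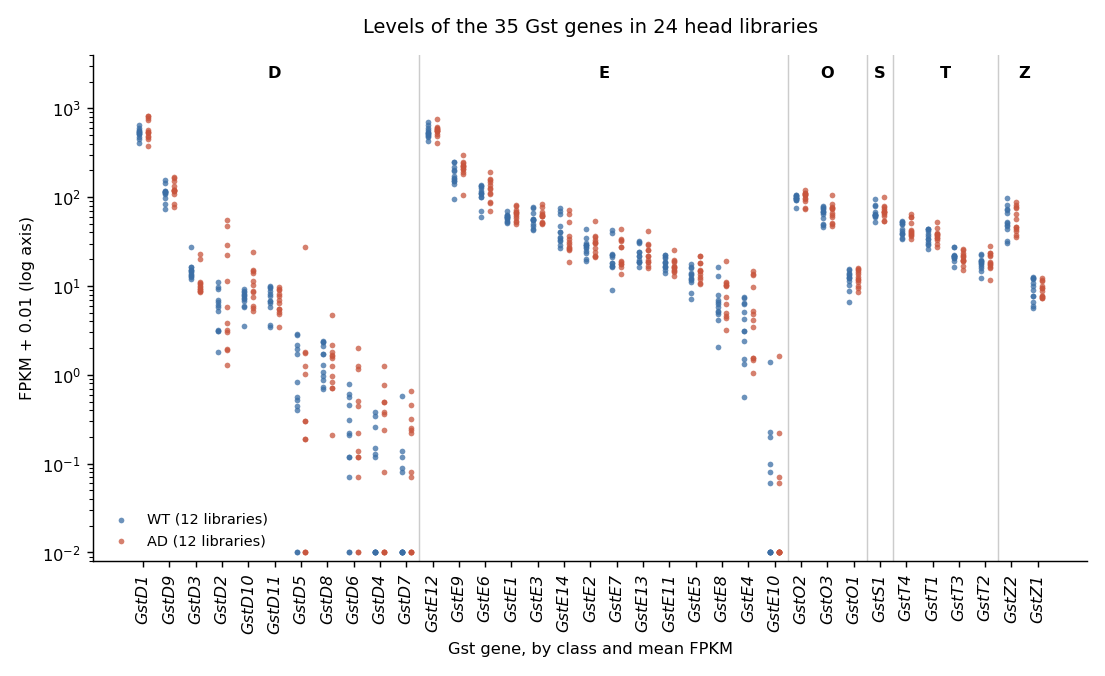
FPKM + 0.01 on a log axis for each of the 35 *Gst* genes, grouped by class and ordered by mean, with 1 point for each of the 12 WT (blue) and 12 AD (red) libraries. *GstD1* and *GstE12* lie highest, with means of 560.8 and 554.2 FPKM, and points at the bottom are libraries in which a gene is listed at 0.

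*GstE10* was seen almost only in a pair of libraries. It was at 17.6 normalized counts in WT day 3 replicate 1 and 21.1 in AD day 3 replicate 2, and at 0 to 3.48 in the other 22. These were the libraries with the high sums of gut enzyme genes given above. The overlapping *GstE1* was at 669 and 606 normalized counts in them, inside its range over all libraries (604 to 940.3). With 0 counts in most libraries no fold was computed for *GstE10*, and the part of gut RNA in its counts was not tested.

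AD flies were compared with WT flies of the same age to ask whether the transgene moved the *Gst* genes. No member passed the threshold at day 3, 10, 20 or 30, where 0.0286%, 0.172%, 0.0954% and 0.0191% of all 10479 genes tested passed it, nor did any in the mean over the 4 days (0.315% of all genes). In that test 0, 0, 3 and 3 members had an unadjusted p under 0.05 on the 4 days. DESeq2 also called 0 members on each day, with 0, 0, 3 and 4 at an unadjusted p under 0.05, and limma on log2(FPKM + 1) called 0, with 0, 0, 4 and 5. Of all genes 3.55%, 3.05%, 4.43% and 7.86% had an unadjusted p under 0.05 on the 4 days, against 9.38% of the members at days 20 and 30. The median log2 fold change of the 32 members was 0.00 on day 3 and -0.01 on day 10, then 0.12 and 0.15 on days 20 and 30, when that of all genes was within 0.01 of 0 on each day.

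**Figure D2:**
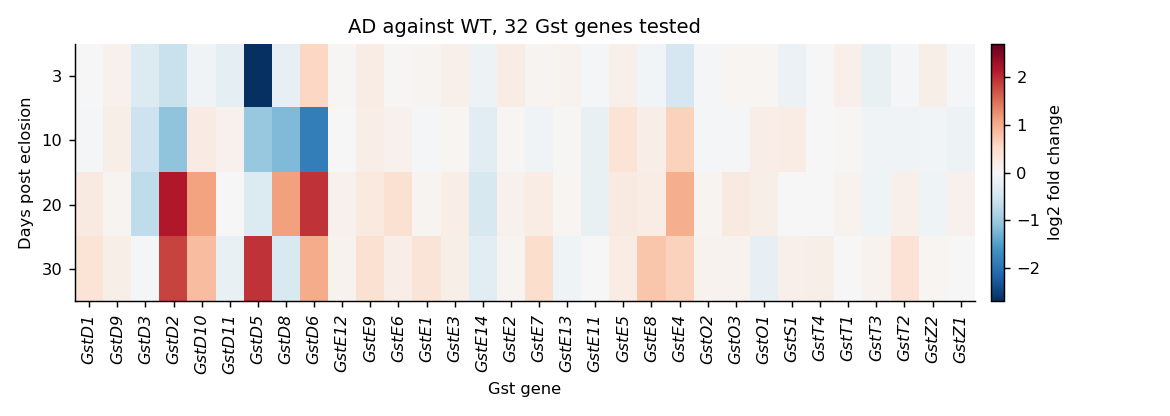
Log2 fold change of AD against WT on each day (rows) for the 32 *Gst* genes tested (columns, by class and mean level), red where AD was higher and blue where WT was higher. Strong colours are found among the scarce class D genes, such as *GstD5* at day 3 (-2.68) and *GstD2* at day 20 (2.15), and none of the cells passed the threshold.

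The genes with the lowest p between genotypes were *GstD2* and *GstD10*, both of the delta cluster. At day 20 *GstD10* was at 86.7, 74.6 and 85.4 normalized counts in WT flies and at 120.2, 93.9 and 315 in AD flies. Every AD library was above every WT library, a separation that 8.91% of all genes had in either direction. AD replicate 3 was far above the other AD libraries. The log2 fold change was 1.09 ± 0.35 (SE), with an unadjusted p of 0.00565 and an FDR of 0.513 by edgeR. At day 30 *GstD10* was at 97.5, 111 and 80.5 in WT flies and at 171, 172 and 169 in AD flies, again without overlap and with little spread among the AD libraries (0.82 ± 0.35, FDR of 0.533 by edgeR). Over the 4 days its mean log2 fold change was 0.51 ± 0.17, with an FDR of 0.22 by edgeR.

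*GstD2* followed the same course with larger values. It was at 53.4, 64.3 and 52.9 normalized counts in WT flies at day 20 and at 96.4, 61.4 and 605 in AD flies, and these ranges overlap because AD replicate 2 was below the highest WT library. At day 30 it was at 63.8, 97.4 and 107 in WT flies and at 271, 214 and 468 in AD flies, where all AD libraries were higher. The log2 fold changes were 2.15 ± 0.70 at day 20 (FDR of 0.513 by edgeR) and 1.83 ± 0.68 at day 30 (FDR of 0.483 by edgeR, 95% interval 0.40 to 3.26). When only the day 30 libraries were fitted, *GstD2* alone among the members passed the threshold, with an FDR of 0.0206 by edgeR (0.515% of all genes passed in that fit). The same fit put 3 members under the FDR limit alone, *GstD2*, *GstD10* and *GstE9* (3.87% of all genes), and 10 at an unadjusted p under 0.05 (19.3% of all genes), against 0 and 3 in the fit of all libraries. The value of 468 comes from the library labelled AD day 30 replicate 3, whose *w* level was that of WT flies.

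Other members were separated between genotypes at day 30 without passing the threshold. In 10 members every AD library was above every WT library (*GstD1*, *GstD2*, *GstD10*, *GstE1*, *GstE3*, *GstE6*, *GstE7*, *GstE8*, *GstE9* and *GstS1*), and in *GstE14* every AD library was below, which made 34.4% of the members against 24.2% of all genes. *GstD1*, a widely used reporter gene of *cnc* activity, was at 6396, 6999.9 and 7268 normalized counts in WT flies and at 8918, 8194 and 9398 in AD flies (0.36 ± 0.18, FDR of 0.661 by edgeR). *GstE9*, the third most abundant member, was at 2056, 1899 and 1718 in WT flies and at 2491, 2350.0 and 2650 in AD flies (0.40 ± 0.29, FDR of 0.849 by edgeR, and 0.0466 in the fit of the day 30 libraries alone). For the most abundant genes of the other classes and for *GstE12* the 95% intervals at day 30 were -0.31 to 0.51 for *GstE12*, -0.16 to 0.35 for *GstO2*, -0.11 to 0.39 for *GstS1*, -0.26 to 0.56 for *GstT4* and -0.42 to 0.54 for *GstZ2* on the log2 scale. *GstD3* had a mean log2 fold change of -0.41 ± 0.14 over the 4 days (FDR of 0.221 by edgeR), and its AD libraries were all below the WT libraries at days 10 and 20. On these days 6.49% and 8.91% of all genes were separated in either direction. Apart from *GstD2* above, no member passed the threshold between genotypes under the settings tried. Without the library labelled AD day 30 replicate 3 the count was 0, with 1 member at an unadjusted p under 0.05 at day 30. In the mean over the 4 days *GstD3* passed the FDR limit alone without that library, as did *GstE14* within the second processing run. In the fit of all libraries no member passed that limit in the mean, against 1.29% of all genes. The summed FPKM of 4 neuron markers was between 387.3 and 501.8 in AD flies of day 30 and between 546.9 and 598.8 in WT flies of that day, without overlap. None of the 4 passed the threshold between genotypes at day 30 (median log2 fold change -0.47). The sum of photoreceptor markers was also lower without overlap (25430.3 to 26797.1 FPKM in AD and 28878.2 to 31363.5 in WT flies). That of blood cell markers was higher, by a small margin (29.44 to 30.8 against 18.33 to 29.38 FPKM). The sums of glial, muscle, head fat body, gut and yolk protein genes overlapped. The part of cell content in the day 30 values was not tested.

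The WT libraries at later days were compared with WT day 3 to describe normal ageing. *GstE14* fell, and it was the single member past the threshold at day 20 (2.33% of all genes passed, 1.52% as lower) and at day 30 (4.49% of all genes, 2.85% as lower). No member passed at day 10, where 0.563% of all genes did. By edgeR 4 members had an unadjusted p under 0.05 at day 10 (16.1% of all genes), and DESeq2 and limma on log2(FPKM + 1) also called 0 at the threshold, with 5 each at an unadjusted p under 0.05. By the FDR limit alone 3 members were called at day 20 (*GstE14*, *GstE13* and *GstZ2*, against 6.39% of all genes) and 4 at day 30 (*GstE14*, *GstE13*, *GstE2* and *GstZ2*, against 11.2%). All 3 comparisons share the WT day 3 libraries.

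In WT heads of day 3, *GstE14*, the ecdysone production gene, had 891, 1151 and 1127 normalized counts. The values were 459.8, 608 and 816 on day 10, 360.1, 543 and 593 on day 20 and 450.2, 522 and 413 on day 30. No library of a later day reached the lowest of day 3. Of all genes 13.4%, 21.4% and 33.1% were separated from WT day 3, in either direction, at days 10, 20 and 30. The level of *GstE14* at day 30 was 0.437 of that at day 3 (log2 fold change -1.19 ± 0.23, FDR of 0.00236 by edgeR). At day 20 the log2 fold change was -1.09 ± 0.23 with an FDR of 0.00783 by edgeR. That call was lost without WT day 20 replicate 1 (-0.89, FDR of 0.0517) and within the second processing run alone, where the fold limit was just missed (-0.997, FDR of 0.00206). The within-run value at day 30 was -1.31 with an FDR of 2.64e-05.

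*GstE13*, *GstE2* and *GstZ2* moved by less than the fold limit in WT flies. *GstE13* was at 376, 408 and 419 normalized counts at day 3 and at 196, 236 and 244 at day 30 (-0.83 ± 0.20, FDR of 0.0102 by edgeR). *GstE2*, whose mosquito counterpart is known for breaking down DDT, was at 522, 466 and 410.4 at day 3 and at 325, 254 and 233 at day 30 (-0.78 ± 0.17, FDR of 0.00636 by edgeR). Neither gene overlapped between these days, which was so for 33.1% of all genes. *GstZ2* was higher, at 569, 614 and 918 at day 3 and at 1249.8, 1431 and 879.9 at day 30 (0.76 ± 0.23, FDR of 0.0405 by edgeR), with the highest library of day 3 above the lowest of day 30. Within the second processing run the FDR of *GstZ2* was 0.0702 and those of *GstE13* and *GstE2* stayed under the limit.

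**Figure D3:**
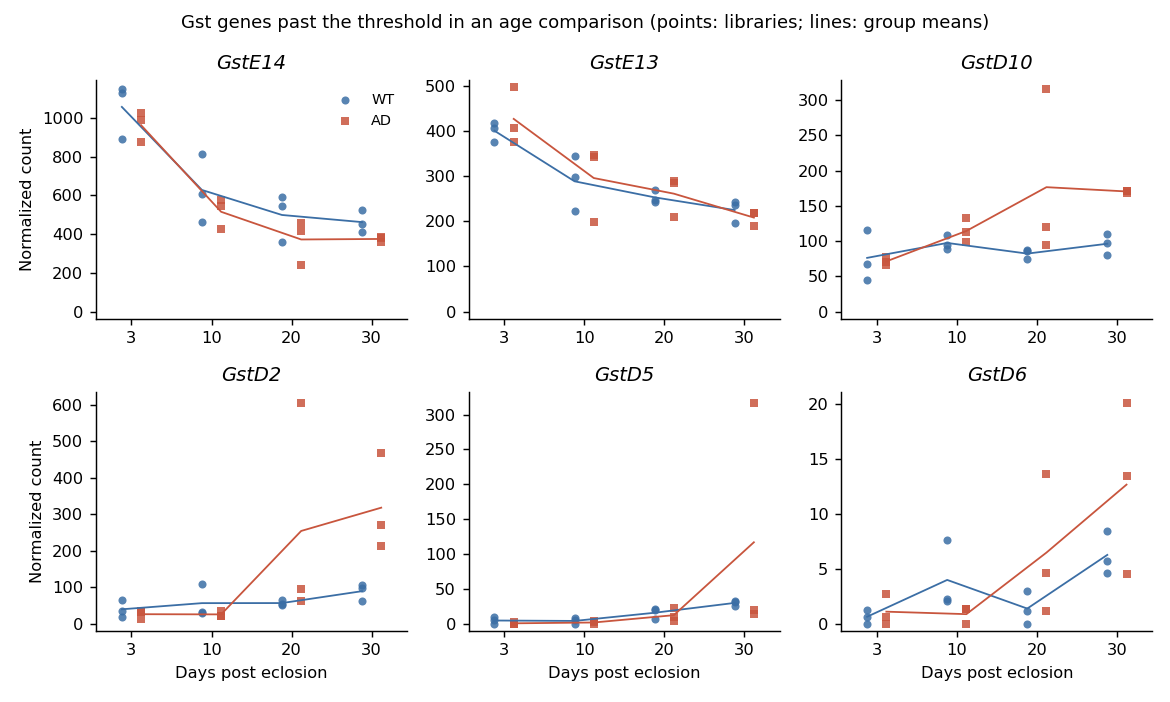
Normalized counts by day for the 6 *Gst* genes past the threshold in an age comparison, with 1 point per library (WT blue circles, AD red squares) and lines through the group means. *GstE14* and *GstE13* fall from day 3 in both genotypes, and *GstD2*, *GstD10*, *GstD5* and *GstD6* have their high points in AD libraries of days 20 and 30.

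In AD flies more members passed the threshold with age. The count was 0 at day 10 (1.21% of all genes), 3 at day 20 (5.44% of all genes) and 6 at day 30 (7.68% of all genes), always against AD day 3. At day 10 edgeR gave 8 members an unadjusted p under 0.05 (18.4% of all genes), and DESeq2 and limma on log2(FPKM + 1) also called 0 at the threshold, with 9 and 6 at an unadjusted p under 0.05. By the FDR limit alone the counts were 1 at day 10 (*GstE14*, against 2.89% of all genes), 7 at day 20 (15.4%) and 10 at day 30 (21.9%). At day 20 *GstE14* fell (2.46% of all genes passed as lower) and *GstD2* and *GstD10* rose (2.98% as higher). At day 30 *GstE14* and *GstE13* fell (3.8% as lower) and *GstD2* and *GstD10* rose past the threshold (3.88% as higher). *GstD5* and *GstD6* were also called, but they reached the minimum of the filter on low counts only in libraries of days 20 and 30, *GstD6* in 3 AD libraries (day 20 replicate 3 and day 30 replicates 1 and 3), so a difference from day 3 was built into their being tested. Without them the count at day 30 is 4. *GstD1*, *GstE6* and *GstZ2* rose and *GstE2* fell by the FDR limit alone. At day 20 DESeq2 called 5 members, *GstD5* and *GstE4* besides *GstE14*, *GstD2* and *GstD10*, and a fit of the day 3 and day 20 libraries alone called 0. Within the second processing run the count was 3 at day 20 and 4 at day 30, where *GstE13* (-0.93) missed the fold limit and *GstD6* the FDR limit (0.0879).

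The falls in class E were close in size to those of WT flies. The AD libraries of day 3 held 1025, 987 and 876 normalized counts of *GstE14*. They held 424, 577 and 544 on day 10, 242, 457 and 417 on day 20, and 379.6, 360.2 and 385 on day 30. Every later library was below every library of day 3. Of all genes 18.8%, 26.2% and 36.0% were separated from AD day 3, in either direction, at days 10, 20 and 30. The log2 fold change of *GstE14* was -1.38 ± 0.23 at day 20 (FDR of 0.000681 by edgeR) and -1.36 ± 0.23 at day 30 (FDR of 0.000376 by edgeR). Both calls held when any of the 6 libraries compared was left out. In the joint test of genotype by age *GstE14* had an FDR of 1 by edgeR.

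*GstE13* was at 499, 377 and 407 normalized counts at day 3 and at 218, 218 and 190.1 at day 30 in AD flies, without overlap (-1.04 ± 0.20, FDR of 0.00104 by edgeR). Its log2 fold change lay at the fold limit, so that it was -0.91 without AD day 3 replicate 1 and -0.97 without the library labelled AD day 30 replicate 3, with an FDR under the limit in each case. *GstE2* was at 672, 474 and 459 at day 3 and at 319, 268 and 273 at day 30 (-0.90 ± 0.17, FDR of 0.00108 by edgeR). In both genotypes the summed levels of muscle and glial markers were also lower after day 3. At day 30 all 3 muscle markers tested were lower past the threshold in WT and in AD flies, as were 2 of 4 glial markers. Of the 4 neuron markers 1 was lower past the threshold at day 30 in AD flies and 0 in WT flies (median log2 fold changes of -0.70 and -0.36), and their sum in AD flies was 592.6 to 790.4 FPKM at day 3. Among the day 3 libraries the muscle sum was lowest in replicate 3 (386.5 FPKM in WT and 311.7 FPKM in AD flies). The glial sum was lowest there too (680.4 and 626.6 FPKM). *GstE14* was at 1127 and 876 normalized counts in these libraries. In replicates 1 and 2 of day 3 it was at 891 and 1151 in WT flies and at 1025 and 987 in AD flies. The part of muscle, glial and neuron RNA in the falls was not tested.

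In AD flies *GstD2* and *GstD10* of the delta cluster rose. *GstD2*, which has been tied to the response to plant isothiocyanates, had 31.1, 13.3 and 34.7 normalized counts on day 3 and 35.4, 20.9 and 21.2 on day 10. The counts were 96.4, 61.4 and 605 on day 20, and 271, 214 and 468 on day 30. The libraries of days 20 and 30 were all above those of days 3 and 10, and day 20 replicate 3 was the highest of all 24. The log2 fold change against day 3 was 3.25 ± 0.73 at day 20 (FDR of 0.00593 by edgeR) and 3.58 ± 0.74 at day 30 (FDR of 0.00209 by edgeR). Without AD day 20 replicate 3 the day 20 value was 1.58 with an FDR of 0.0842. The day 30 call held when any of the 6 libraries was left out, and its log2 fold change was 3.19 without the library labelled AD day 30 replicate 3.

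*GstD10* had 70.7, 65.6 and 77.4 normalized counts in AD heads of day 3 and 98.3, 112 and 132 on day 10. It had 120.2, 93.9 and 315 on day 20, and 171, 172 and 169 on day 30. All later libraries were above those of day 3. The log2 fold change was 1.30 ± 0.35 at day 20 (FDR of 0.0177 by edgeR) and 1.26 ± 0.35 at day 30 (FDR of 0.0153 by edgeR). The day 20 call was lost without AD day 20 replicate 3 (0.59, FDR of 0.208), AD day 3 replicate 1 (FDR of 0.0616) or AD day 3 replicate 2 (FDR of 0.0698), and the day 30 call without AD day 3 replicate 2 (1.20, FDR of 0.0623).

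*GstD5* and *GstD6* were nearly silent at day 3, so that their folds rest on few counts. As both were tested only through libraries of days 20 and 30, their folds and calls are given as descriptions. *GstD5* had 0, 2.22 and 0 normalized counts in AD heads of day 3. It had 10.5, 3.61 and 23.1 on day 20, and 14.1, 20.2 and 316 on day 30. The 316 belongs to the library labelled AD day 30 replicate 3, and the other AD libraries of day 30 were below all WT libraries of that day (31.3, 25.3 and 33.4). Summed expected counts were 315 at day 30, of which 283 came from the library labelled AD day 30 replicate 3, and 2 at day 3. The ratio was 181 with a 95% counting interval of 49.6 to 1499 after scaling for depth, which leaves out the spread between libraries. The log2 fold change was 7.20 ± 1.60 (FDR of 0.00354 by edgeR), and 4.43 with an FDR of 0.0351 without that library. *GstD6* had 36 counts at day 30 and 3 at day 3, a ratio of 13.8 (4.35 to 69.9), and its call (FDR of 0.03 by edgeR) held under 8 alternatives and was lost under 9. It was lost with no filter on low counts (FDR of 0.0856), in the fit of the groups compared alone (0.0832) and by limma on log2(FPKM + 1), where the fold limit was missed (0.97). It was also lost without AD day 3 replicate 1 or 2, AD day 30 replicate 1 or the library labelled AD day 30 replicate 3, with an FDR between 0.0551 and 0.115, and a filter on a mean of at least 10 counts removed the gene. In WT flies the scaled ratios at day 30 were 5.28 for *GstD5* (3.13 to 9.37) and 9.87 for *GstD6* (2.32 to 88.5), and neither passed the threshold.

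**Figure D4:**
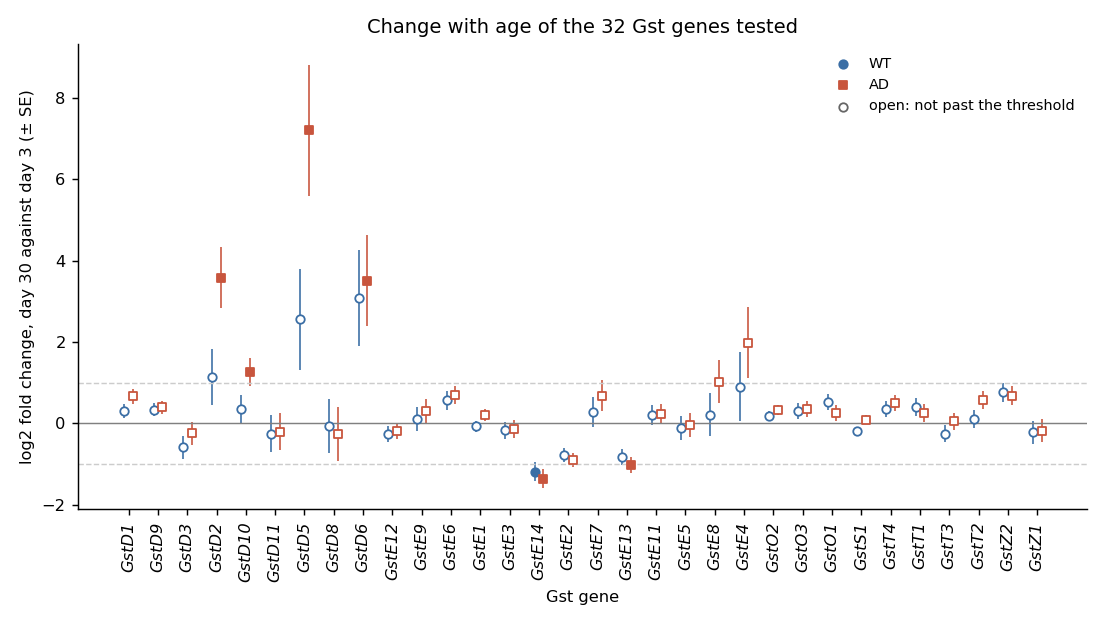
Log2 fold change of day 30 against day 3 with its standard error for the 32 *Gst* genes tested, in WT (blue circles) and AD flies (red squares), filled where a gene passed the threshold and with dashed lines at the fold limit of 1. *GstE14* passed in both genotypes (-1.19 and -1.36), and *GstD2*, *GstD5*, *GstD6*, *GstD10* and *GstE13* passed in AD flies, *GstD5* and *GstD6* being tested only through their late libraries.

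Among the members called by the FDR limit alone in AD flies, *GstD1* was at 5902, 4552 and 6309 normalized counts at day 3 and at 8918, 8194 and 9398 at day 30 (0.66 ± 0.18, FDR of 0.0128 by edgeR), without overlap. *GstE6* was at 1102, 744 and 1009 at day 3 and at 1543, 1479 and 1599 at day 30 (0.69 ± 0.23, FDR of 0.0343 by edgeR), also without overlap. Between these days 36.0% of all genes did not overlap. *GstO1* was called at day 20 (0.64 ± 0.19, FDR of 0.0303 by edgeR), at 185, 209 and 239 against 129, 121 and 156 at day 3, but its value was 0.25 at day 30. *GstZ2* was at 695, 743 and 888 at day 3 and at 1096, 1275 and 1346 at day 30 (0.68 ± 0.23, FDR of 0.0429 by edgeR).

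A joint test of the genotype by age terms asked whether ageing differed between AD and WT flies. No member passed an FDR of 0.05, against 0.0191% of all genes. By edgeR 1 member had an unadjusted p under 0.05 (2.36% of all genes), namely *GstD2*, at an unadjusted 0.00614 and an FDR of 1. DESeq2 and limma on log2(FPKM + 1) likewise gave 0 members past the limit and 1 at an unadjusted p under 0.05. *GstD2*, *GstD5*, *GstD6*, *GstD10* and *GstE13* passed the threshold at day 30 in AD flies and not in WT flies, but their difference between genotypes was thus not shown.

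High values of the members gathered in particular libraries. AD day 20 replicate 3 held the highest normalized count of all 24 libraries for 10 of the 32 members tested (*GstD1*, *GstD2*, *GstD8*, *GstD10*, *GstE4*, *GstE6*, *GstO1*, *GstO2*, *GstO3* and *GstT4*), 31.2% of the members against 5.49% of all genes. AD day 10 replicate 1 held it for 7 members (*GstD9*, *GstE3*, *GstE5*, *GstE7*, *GstE8*, *GstE9* and *GstS1*), 21.9% against 3.31% of all genes. The latter library also had a summed FPKM of 1063 for the 4 markers of head fat body, against 333.4 and 383.3 in the other AD libraries of day 10. In WT day 10 replicate 1 that sum was 1584, and *GstE7* and *GstE8* were at 425 and 178 normalized counts there, next below the 426 and 197 of AD day 10 replicate 1. In AD day 20 replicate 3 it was 224.5, the lowest of all libraries. The part of fat body RNA in these values was not tested. Without AD day 20 replicate 3 the count of members past the threshold at day 20 in AD flies was 1, *GstE14*.

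Summed by class, delta GSTs held a larger share of the family at day 30 than at day 3. The 11 class D genes summed to 592 ± 72.2 FPKM (SD, n = 3) in WT flies at day 3 and 763.7 ± 36.8 at day 30, and to 579.6 ± 87.7 and 1002 ± 78.6 in AD flies. The 3 AD libraries of day 30 (912.2 to 1059) were above the 3 WT libraries of day 30 (726.5 to 799.99), but so they were for class E (1234 to 1303 against 1071 to 1125) and for all members together (2655 to 2863 against 2311 to 2367). The class held 27.8% ± 1.57 of the summed *Gst* FPKM in WT flies at day 3 and 32.8% ± 1.66 at day 30, and 27.2% ± 0.83 and 36.0% ± 1.60 in AD flies (SD, n = 3), most of it *GstD1*. Class E summed to 1168 ± 204 FPKM in WT flies at day 3 and 1105 ± 29.6 at day 30, and to 1195 ± 242 and 1269 ± 34.2 in AD flies, and its share was 54.4% at day 3 and 47.4% at day 30 in WT flies and 55.7% and 45.7% in AD flies. Class E spread most at day 3, where *GstE12*, its most abundant gene, was at 620.3 ± 102 FPKM in WT and 619.6 ± 130 in AD flies. These sums are descriptions, without a test.

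**Figure D5:**
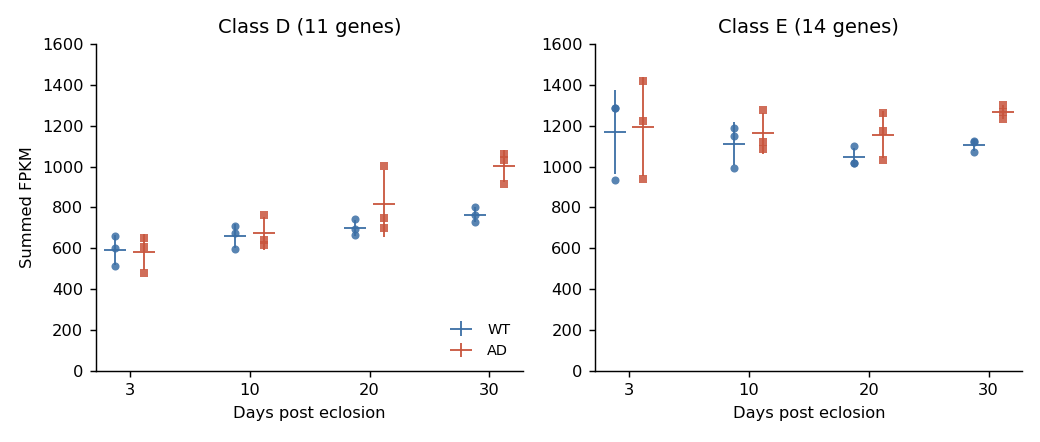
Summed FPKM of the 11 class D genes (left) and the 14 class E genes (right) by day, with 1 point per library (WT blue circles, AD red squares) and the mean with its SD as bars (n = 3). At day 30 the AD libraries lie above the WT libraries in both classes (912.2 to 1059 against 726.5 to 799.99 in class D and 1234 to 1303 against 1071 to 1125 in class E), and on days 3, 10 and 20 the genotypes overlap in both.

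The other genes of glutathione metabolism and of the oxidative stress response were described by lists of symbols. Between AD and WT flies none of their members was called by the FDR limit on any day. Few genes of any kind were, namely 0.0286%, 0.21%, 0.153% and 0.0286% of all genes at days 3, 10, 20 and 30. Of 11 genes of glutathione synthesis and use that were tested (14 listed), 2 were higher at day 30 than at day 3 in WT flies by the FDR limit alone and none lower, and 4 were higher and 2 lower in AD flies. By that limit 4.52% of all genes were higher and 6.63% lower in WT flies, and 10.2% higher and 11.7% lower in AD flies. The genes higher in both genotypes were *Ggt-1*, a gamma-glutamyl transpeptidase (0.86 ± 0.19 in WT and 0.98 ± 0.19 in AD flies), and *Gss1*, a glutathione synthetase (0.42 ± 0.13 and 0.61 ± 0.13). *Gclc*, which encodes the catalytic subunit of the rate-limiting enzyme of glutathione synthesis, had log2 fold changes of 0.00 ± 0.22 and 0.11 ± 0.22 and was not called. Of the 3 genes of the Nrf2 axis, *cnc* was higher at day 30 by the FDR limit in WT (0.67 ± 0.20) and AD flies (0.57 ± 0.20), and *Keap1* and *maf-S* were not called. Of 9 antioxidant enzymes, 2 were lower in WT (6.63% of all genes) and 4 lower and 1 higher in AD flies at day 30 (11.7% and 10.2% of all genes), *Sod2*, the mitochondrial superoxide dismutase, among the lower (-0.60 ± 0.16 and -0.66 ± 0.16). *se* (*sepia*), an omega GST of eye pigment synthesis whose symbol does not begin with *Gst*, fell past the threshold at day 30 in both genotypes, with log2 fold changes of -1.25 ± 0.21 in WT and -1.65 ± 0.21 in AD flies. It overlaps *GstO2* on the opposite strand, for which the log2 fold changes were 0.18 in WT and 0.33 in AD flies.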

How the data were processed

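The authors filtered the reads with SOAPnuke, mapped them to *Drosophila* release 6 with HISAT2 2.0.4, and estimated gene levels with RSEM, whose version is not given in the sources used here. The sample records also name Bowtie2, without a version. The deposited expected counts are these estimates, not normalized, and the deposited FPKM values are those estimates scaled by the authors to length and depth. Genes of the authors' own numbering (0.287% to 1.15% of the counts) were left out, and a gene not listed for a library was taken as 0. Groups and replicate numbers came from the sample labels, and all 35 symbols were found in the names table.

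Expected counts, rounded, were tested with edgeR 4.0.16 in R 4.3.3 (TMM, filterByExpr, 8 groups, no covariate), which left 10479 genes. Standard errors came from the estimate and its F statistic. Alternatives were DESeq2 1.42.0, limma 3.58.1 on log2(FPKM + 1) and log2(FPKM + 0.1), RLE normalization, other filters on low counts (none, or a mean of at least 10), the FDR limit alone, only the groups compared, the second processing run only, processing run as a covariate, a replicate block and leaving out each library. The omission of both libraries that stand apart was chosen after seeing the data. On simulated counts with 200 changed genes edgeR, DESeq2 and limma recovered most changes. All changes were beyond the fold limit and in well-counted genes, without a difference between processing runs. The simulation therefore does not cover scarce members such as *GstD5* and *GstD6* or folds near the limit. Counting intervals cover counting error only.

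Pairing was checked from the deviations of same-numbered libraries. All correlations were over 0.1 for AD against WT at days 10 and 20, for WT days 10 and 20 against day 3 and for AD day 10 against day 3, but not for the other 5 comparisons, and no pairing is described by the labels. Where they were over 0.1, replicate 1 was of the first processing run in both groups, so the check cannot tell pairing from run. At day 20 AD replicate 3 correlated at 0.459 with WT replicate 2 and at 0.378 with WT replicate 3. Replicates of a group differed by more than sampling noise in all 24 pairs. The chi-square per gene was 194 to 432 for pairs between the first and second processing run and 9.52 to 93.6 for pairs within the second. Members past the threshold are named with all libraries, with the most abundant gene of each class, up to 8 more past the FDR limit alone, and those under the filter. The members and lists were chosen with earlier results of these data known.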

Additional observations from a re-analysis of the deposited data

How the results depend on the processing

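Counts of *Gst* genes past the threshold depended on a few settings. Between AD and WT flies the count was 0 under the settings tried except at day 30, where the fit of only the groups compared gave 1. For WT day 20 against day 3 (1 gene) the fit of only the groups compared and the second processing run only each gave 0, the FDR limit alone gave 3, and leaving out a library gave 0 to 2, with 2 without WT day 3 replicate 3 or WT day 20 replicate 3. For WT day 30 against day 3 (1 gene) the replicate block gave 2, *GstD6* being added, the FDR limit alone gave 4, and leaving out a library gave 1 to 2, with 2 without WT day 3 replicate 3. For AD day 10 against day 3 (0 genes) the FDR limit alone gave 1. For AD day 20 against day 3 (3 genes) DESeq2 gave 5, only the groups compared gave 0, the FDR limit alone gave 7, and leaving out a library gave 1 to 3. For AD day 30 against day 3 (6 genes) the FDR limit alone gave 10, and leaving out a library gave 4 to 6. Leaving out both libraries that stand apart gave 4 at day 20 and 4 at day 30. The replicate block moved no other count of members past the threshold by over 1.5 times. Of the 197 values of single genes under an alternative, 171 kept their side of the threshold, 26 did not and 0 reversed. *GstD5* gave 18 of the 171, and *GstD6* gave 8 of the 171 and 9 of the 26. Both genes were tested only through libraries of days 20 and 30, so their values do not bear on how firm the calls are. Among the 171 are 11 under the FDR limit alone, which a gene past the threshold passes by definition. The causes were not tested. The fit of only the groups compared was not run for the mean over the 4 days or for the interaction. Depth limits *GstD4*, *GstD5*, *GstD6*, *GstD7* and *GstE10*, which had a median of at most 6 expected counts per library.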

Other observations

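Some epsilon genes varied widely between replicates. *GstE4* was at 151 and 153 normalized counts in AD day 30 replicates 1 and 2 and at 17.9 in the library labelled AD day 30 replicate 3, while in WT flies of that day it was at 83.5, 77.0 and 48.3. In that same library *GstD5* stood at 316 and *GstD3* at 201, against 14.1 and 20.2 for *GstD5* and 94.4 and 99.9 for *GstD3* in the other AD libraries of day 30. *GstE8* was at 178 in WT day 10 replicate 1 and 197 in AD day 10 replicate 1, against 56.3 to 102 in the other libraries of that day, and *GstE7* at 425 and 426, against 179 to 287. Both of these day 10 libraries belong to the first processing run. They had the highest sums of head fat body markers (1584 and 1063 FPKM), of which *Lsp2* varied most. The part of the run or of fat body RNA in the *GstE7* and *GstE8* values was not tested.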
